A study of Sus scrofa with 12 samples.

Results

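The comparison described here sets infarcted pig myocardium treated with the basal secretome (AMI/S-endMSCs, 4 arrays) against infarcted myocardium given the vehicle (AMI/Placebo, 4 arrays). The arrays were chosen by their titles, and these 8 are part of a series of 12 arrays, 1 per pig. The study tested secretomes of mesenchymal stromal cells (MSCs) from menstrual blood, which the sample labels call endometrial and which the paper names S-MenSCs, as an intrapericardial therapy soon after a heart attack. The question addressed by the comparison is how the secretome of unprimed cells changed transcription in the infarct area.

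All pigs were female Large White animals with a closed-chest infarct, made by inflating a balloon in the left anterior descending artery for 90 min followed by reperfusion. On day 3 post-infarction, AMI/S-endMSCs pigs received the concentrated secretome in 5 mL through a mini-thoracotomy into the pericardial sac. AMI/Placebo pigs received the medium in which the secretome had been concentrated, DMEM with insulin, transferrin and selenium, by the same route. The remaining 4 pigs (AMI/S-endMSCs*) received the secretome of cells primed with IFNγ and TNFα, and here they only add to the estimate of the spread. Tissue was taken from the anterior wall of the left ventricle on day 7 post-therapy. The secretome was of human origin, and the paper does not state whether it was pooled over donors. The pigs were healthy before the infarct. A group without infarction does not enter this comparison.

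As background, MSCs secrete soluble proteins and extracellular vesicles that carry miRNAs, and their secretomes are studied for effects on inflammation, vessel growth and scar formation. In the second week after reperfusion, an infarct loses its dead cardiomyocytes, which macrophages clear. Fibroblasts then lay down collagen, and new capillaries grow in from the border. Tissue from such a wall mixes surviving muscle, scar, vessels and immune cells, and an array reads the RNA of all of them together.

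Values are log2 expression values made by Robust Multichip Average (RMA), a method that removes background signal, normalizes the arrays and gives 1 value per probe set. The arrays still differed, with medians from 2.69 (AMI/Placebo replicate 1) to 2.99 (AMI/S-endMSCs replicate 1). Of 27558 probe sets, 11982 had 1 gene symbol, and they stood for 10912 genes, each read from whichever of its probe sets was brightest on average. The median of all probe sets was 2.78, and 30 genes of organs other than the heart had a median level of 2.003 and a 90th percentile of 2.66, which gives the level at which a gene with no known role in the heart was read. Cardiac muscle was present in the samples, with all 18 measured cardiomyocyte markers above the median of the probe sets, and so were all 24 fibroblast and scar matrix genes. Contrast, taken as the interquartile range of all probe sets of an array, was lowest in AMI/S-endMSCs replicate 1 (1.66) and AMI/Placebo replicate 4 (1.80) and lay between 1.93 and 2.52 in the other 6 arrays of the comparison. A change is given as the log2 fold change, AMI/S-endMSCs minus AMI/Placebo, with its standard error (SE). It comes from limma fitted to all 12 arrays, and a gene was called, and is said to have risen or fallen, where its p without adjustment was below 0.05, as the study did. The labels do not say more of the 4 pigs of a group than that they are separate samples.

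In AMI/S-endMSCs pigs 284 genes rose and 200 fell. Among the rises without overlap between the pigs were the small GTPase-like RABL6, the hydroxylase JMJD7 and the kinase DAPK2, and among such falls the autophagy GTPase RAB24, the efflux transporter ABCG2, the ATP synthase subunit ATP5B and the fibroblast protein ISLR. Some called genes whose pigs overlapped changed by more, such as RTN4 (-1.74), XIRP2 (-1.35) and CTHRC1 (-1.33), and so did rises of genes known only by a locus number. The 484 calls were 4.44% of the 10912 genes (2.6% called higher and 1.83% called lower), where a threshold of 0.05 lets through 5% of unchanged genes, and 0 genes had a Benjamini-Hochberg adjusted p under 0.05 over all probe sets (limma, all 484 calls at an adjusted p = 0.857). Genes called higher made up 58.7% of the calls, but 33.9% once the arrays were centred on their medians and 47.4% once they were quantile normalized. In 167 called genes (1.53%) the 4 pigs of one biogroup did not overlap the 4 of the other, 110 of them higher (1.01%) and 57 lower (0.522%). Called changes were moderate, with a median size of 0.72 on the log2 scale. A rise above 1 was seen for 26 of them and a fall of more than 1 for 38. At the median SE of 0.29, a change had to reach 0.63 to be called. Without any 1 of the 8 arrays, 97 calls (54 higher and 43 lower) kept their side of the threshold, and 79 genes (42 higher and 37 lower) were called the same way in every alternative that could test them, apart from a filter on dim probe sets that leaves out the dim ones. This last set was formed after the values were seen.

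RABL6, a Rab-like GTPase, was at 2.76, 2.65, 2.83 and 2.96 in the AMI/Placebo pigs and at 4.01, 3.27, 4.12 and 4.52 in the AMI/S-endMSCs pigs. Its rise of 1.18 (SE 0.28) was the largest among the genes named by the rule for non-overlapping genes. JMJD7, a lysyl hydroxylase whose gene lies next to PLA2G4B and shares a read-through transcript with it, stood at 3.04, 2.46, 2.56 and 2.68 after placebo and at 4.28, 3.77, 3.42 and 3.61 after the secretome (1.08, SE 0.25). GTPBP2, which helps to rescue stalled ribosomes in mice, was the brightest of the genes in this group of rises. Its values were 4.62, 4.14, 4.46 and 4.09 in AMI/Placebo and 5.21, 5.24, 4.62 and 5.93 in AMI/S-endMSCs, so that the lowest treated pig lay at the level of the highest control (0.93, SE 0.30). DAPK2, a calmodulin-regulated kinase linked to cell death, was the most even of them after treatment, at 3.64, 3.47, 3.57 and 3.53, against 2.76, 2.71, 2.97 and 2.22 after placebo (0.89, SE 0.21).

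CHERP, an endoplasmic reticulum protein with a part in calcium release and splicing, rose from 2.29, 2.33, 2.19 and 1.98 to 3.48, 2.70, 3.31 and 3.54 (1.06, SE 0.26). ENHO, which encodes the secreted peptide adropin, rose from between 2.70 and 3.16 to between 3.28 and 4.48 (0.89, SE 0.31). METTL13, a methyltransferase of a translation elongation factor, rose by 0.72 (SE 0.23). For each of these 7 genes, the call stood without any 1 of the 8 arrays. The other genes of this rule included SLC34A2, a phosphate transporter of epithelia (0.94), LACTBL1 (0.92), the neuropeptide gene QRFP (0.80) and the adhesion protein TENM2 (0.75). The rest were SHISA5, a protein of the endoplasmic reticulum and nuclear membrane (0.75), the chemokine receptor CXCR6 (0.73), the filamin-binding RFLNA (0.72) and RGS18, a regulator of G-protein signalling in platelets and myeloid cells (0.72). SLC34A2 and CXCR6 kept their calls without any 1 array. RFLNA lost its call without 1 of the arrays, LACTBL1 and TENM2 without 2, SHISA5 without 3 and QRFP and RGS18 without 5. QRFP and RGS18 also lost theirs under median centring and quantile normalization. With array contrast as a covariate, SLC34A2 and RGS18 alone of these genes kept theirs. The other probe set of TENM2 changed by 0.18 and was not called. The smallest p-values of all included 3 genes with other usual sites of expression, the germline gene PIWIL3 (0.93), the homeobox gene EN2 (1.17) and the muscarinic receptor CHRM4 (1.12). The other probe set of PIWIL3, at a mean of 1.26, changed by 0.14 and was not called. The means of the 3 genes over the 12 arrays were 1.48, 1.80 and 2.04, inside the range of genes of other organs. The same holds for many rises: only 143 of the 284 had a mean in AMI/S-endMSCs above 2.66, whereas 191 of the 200 genes that fell had a mean in AMI/Placebo above it. Of the 15 rises named by the rule, only RABL6, GTPBP2, ENHO and RFLNA had a mean in AMI/Placebo above the median of all probe sets (2.78). The other rises of the rule passed its filter on level through AMI/S-endMSCs alone, such as CHERP (2.20 in AMI/Placebo) and SLC34A2 (1.86).

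**Figure D1:**
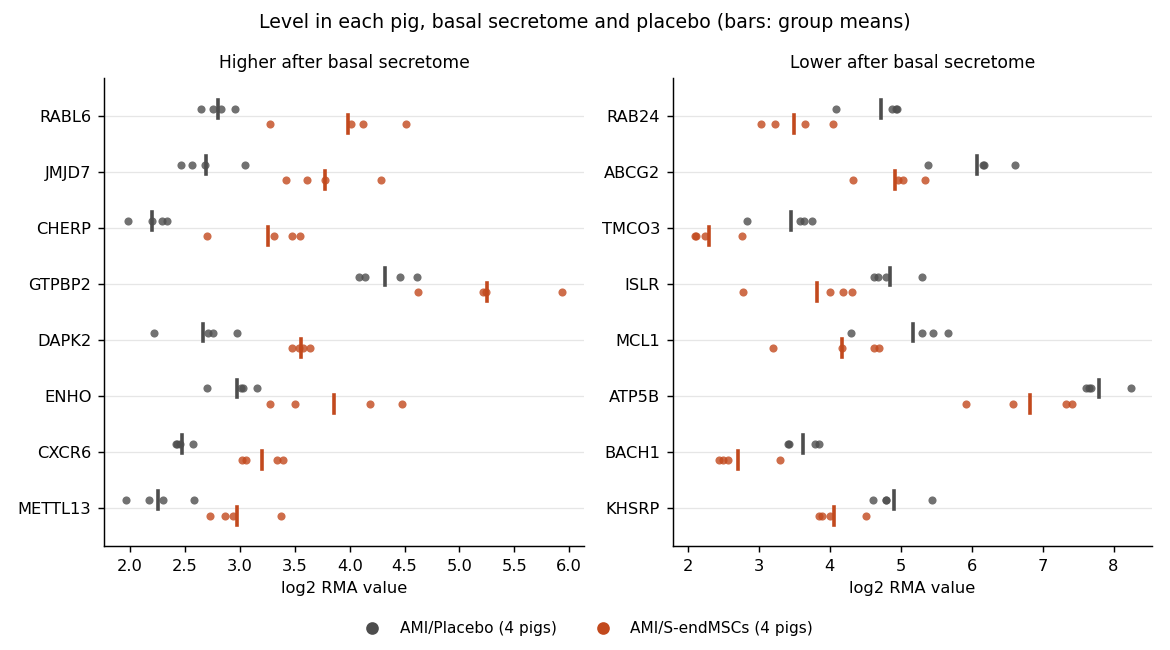
Each point is the log2 RMA value (x axis) of 1 pig, grey for AMI/Placebo and orange for AMI/S-endMSCs, for 8 genes called higher (left) and 8 called lower (right), and the bars are group means. For 15 of the 16 genes the 4 pigs of one biogroup lie apart from the 4 of the other, and for MCL1 AMI/Placebo replicate 4 (4.29) lies among the treated pigs.

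Among the falls, RAB24, a small GTPase of autophagy, was at 4.94, 4.95, 4.88 and 4.09 in the AMI/Placebo pigs and at 3.03, 4.05, 3.65 and 3.23 in the AMI/S-endMSCs pigs. Its change of -1.23 (SE 0.37) was the largest fall among non-overlapping genes named by the rule. ABCG2, an efflux transporter found in capillary endothelium and in stem-like cells, was read at 6.17, 6.15, 6.61 and 5.38 after placebo and at 5.03, 4.96, 4.32 and 5.34 after the secretome (-1.17, SE 0.29). The highest treated pig and the lowest control were close, at 5.34 and 5.38. The other 2 probe sets of ABCG2, which were dimmer, changed by -0.10 and -0.33 and were not called. TMCO3, a transmembrane protein of the ion exchanger family, fell by 1.15 on the log2 scale (SE 0.28), from between 2.83 and 3.75 to between 2.09 and 2.76.

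BACH1, a heme-sensing repressor of antioxidant genes, went from 3.79, 3.40, 3.85 and 3.42 to 2.44, 2.57, 3.30 and 2.49 (-0.91, SE 0.29). KHSRP, which promotes decay of AU-rich mRNAs, went from 5.44, 4.61, 4.80 and 4.79 to 3.88, 4.51, 4.00 and 3.85 (-0.85, SE 0.26). The histone chaperone ASF1A (-0.85) and the transcription regulator NACC1 (-0.84) fell by similar amounts. Enzymes and transporters in the same group were ATP6V1E2, a proton pump subunit (-1.08), FMO5, a flavin monooxygenase (-0.93), and KYAT3, a kynurenine aminotransferase (-0.86). TMEM86A, an enzyme of plasmalogen breakdown, fell by 0.80 on the log2 scale, with all treated pigs between 2.45 and 2.54 and all controls between 3.09 and 3.56. These 8 genes, with RAB24, ABCG2 and TMCO3, kept their calls without any 1 array. The remaining genes of this rule were less steady. TUBB2B (-1.12), a tubulin with near-identical family members, lost its call without 4 of the arrays. Its other probe set, at a mean of 2.36, changed by 0.004 and was not called. PKIA (-0.94), an inhibitor of protein kinase A, lost its call without 2 of the arrays and the tetraspanin TSPAN2 (-0.85) without 7.

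Of 11 measured endothelial markers, 2 were called, and both fell, beside 1.83% of all genes called lower. KDR, the main receptor for VEGF on endothelium, was at 5.44, 4.97, 4.90 and 4.71 in AMI/Placebo and at 3.61, 3.82, 5.17 and 4.39 in AMI/S-endMSCs (-0.76, SE 0.32). Only treated replicate 3 reached the control range. CLEC14A, an endothelial adhesion protein, fell from 4.20, 3.69, 3.42 and 3.34 to 2.69, 3.41, 2.74 and 3.16 (-0.66, SE 0.25), and the array reads it with 3 probe sets of the same values. Of the 11 markers 9 had a negative change, with a median of -0.11. In a bulk sample, fewer cells of a type and less RNA per cell cannot be told apart.

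Among 21 measured angiogenesis factors and receptors, 3 fell and 1 rose, beside 1.83% and 2.6% of all genes. ANGPT2, which destabilises vessels, fell from 4.59, 4.24, 3.66 and 3.34 to 3.28, 3.19, 3.64 and 2.91 (-0.70, SE 0.28). THBS1, a matrix protein that restrains angiogenesis and activates TGF-beta, fell from 8.78, 7.53, 8.52 and 6.95 to 6.42, 7.30, 7.25 and 6.52 (-1.07, SE 0.49). PGF, placental growth factor, rose without overlap from 2.02, 2.16, 1.56 and 2.02 to 2.69, 2.8003, 2.16 and 2.52 (0.60, SE 0.24), close to the level of genes of other organs. The median over the list was -0.11, and 0.062 under quantile normalization. Each of these 5 calls was lost with the contrast of the array as a covariate, which by construction takes out a shift that depends on level. KDR, whose other probe set was very dim and had a change of 0.32, and CLEC14A, ANGPT2 and PGF each also lost their call without any 1 of 3 arrays, and THBS1 without any 1 of 4. AMI/S-endMSCs replicate 1 was among these arrays for all but ANGPT2, and AMI/Placebo replicate 1 for all but PGF.

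Scar genes had mostly negative changes, with 1 call in the list of 24, beside 1.83% of all genes called lower. CTHRC1, a collagen-associated protein of activated fibroblasts in infarct scars, was at 5.81, 7.33, 5.48 and 6.26 after placebo and at 3.56, 5.66, 5.44 and 4.87 after the secretome (-1.33, SE 0.47). ISLR, or meflin, a secreted protein of mesenchymal and fibroblast-lineage cells, did not overlap, at 4.63, 4.79, 5.31 and 4.68 against 4.31, 3.99, 2.77 and 4.19 (-1.03, SE 0.35). Of the 24 measured fibroblast and scar matrix genes, 21 had a negative change and the median was -0.46, against -0.24 for the brightest of 4 equal groups of all genes. The mean of the list was highest in AMI/Placebo replicate 1 and lowest in AMI/S-endMSCs replicate 1 (0.59 and -0.91 from the mean of each gene), and the biogroups overlapped. CTHRC1 lost its call without AMI/Placebo replicate 2, without AMI/S-endMSCs replicate 1 and with the contrast of the array as a covariate, where the median of the list was 0.11. ISLR kept it in each of these. SPP1, osteopontin of macrophages and fibroblasts, was at 9.53, 9.67 and 9.77 in 3 of the placebo pigs and at 4.75 in replicate 4, against 7.54 to 9.31 in the treated pigs, and its change was small beside its interval (0.06, 95% interval -2.74 to 2.86).

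Markers of surviving muscle had mostly negative changes with wide spread, and none of 18 cardiomyocyte markers was called. Negative changes were found for 16 of them, with a median of -0.49, which was -0.11 without AMI/S-endMSCs replicate 1 and 0.096 without both arrays of lowest contrast. MYL2, the ventricular myosin light chain, was at 10.30, 11.31, 8.77 and 10.94 in AMI/Placebo and at 8.26, 9.91, 9.22 and 10.39 in AMI/S-endMSCs (-0.88, 95% interval -2.34 to 0.57). MYH7, the slow myosin heavy chain, changed by -0.77 (-2.21 to 0.68). CSRP3, a stretch-sensing Z-disc protein, spanned 2.82 to 10.09 over the 8 pigs, the lowest value being that of AMI/S-endMSCs replicate 1 (-2.38, SE 1.18). XIRP2, an actin-binding protein of the intercalated disc listed with the cardiac stress genes, did fall, from 6.55, 6.70, 5.48 and 7.29 to 4.47, 5.64, 4.89 and 5.59 (-1.35, SE 0.58), and MYBPHL, a myosin-binding protein, rose by 0.49 at a low level, but each lost its call without any 1 of 5 arrays. Of 14 measured cardiac stress and fetal genes, 1 was called higher and 1 lower, beside 2.6% and 1.83% of all genes. XIRP2 also lost its call under quantile normalization and with array weights. MYBPHL kept its call in 3 of the 9 alternatives that kept all arrays and could test it. A fit that took the level of muscle markers in each pig as a covariate called 510 genes, 339 of them shared with the 484.

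The lists of nuclear energy genes had mostly negative changes. ATP5B, the catalytic subunit of mitochondrial ATP synthase, was at 7.69, 8.24, 7.62 and 7.66 in the placebo pigs and at 5.93, 7.42, 7.33 and 6.58 in the treated pigs, without overlap (-0.99, SE 0.33), and its other probe set fell as well (-1.75). It was the only call among 23 measured oxidative phosphorylation genes, beside 1.83% of all genes called lower. Of the 23, 22 had a negative change, with a median of -0.42. Of 22 fatty acid oxidation and uptake genes, 2 enzymes of beta-oxidation fell, read beside the same share. HADH went from 6.37, 6.58, 6.05 and 6.08 to 5.07, 5.69, 5.79 and 5.99 without overlap (-0.64, SE 0.25), and ACAA2 from 4.52, 5.54, 3.73 and 4.84 to 2.68, 3.41, 4.04 and 4.16 (-1.08, SE 0.46). Both lost their calls with array contrast as a covariate, HADH also without any 1 of 3 arrays and ACAA2 without any 1 of 4, AMI/S-endMSCs replicate 1 among them, and ATP5B kept its call in all of these. Glycolysis had 0 calls in 21 genes, 17 of them negative, with GAPDH at -0.37 (-0.93 to 0.19) and LDHA at -0.11 (-1.62 to 1.40).

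Chemokine genes were called in the other direction. Of 26 measured, 4 rose and 0 fell, which is 15.4% of the list beside 2.6% of all genes called higher. CCL19, a ligand of CCR7, was at 2.02, 1.97, 2.55 and 2.68 in AMI/Placebo and at 3.65, 2.64, 2.64 and 2.92 in AMI/S-endMSCs (0.66). CCL25, a ligand of CCR9, rose by 0.63, CCL26, an eotaxin, by 0.52 and CCL27, a ligand of CCR10, by 0.71. Their means of 2.44 to 2.73 lay near those of genes of other organs, and the 8 pigs overlapped in each. CCL25 kept its call in every alternative that kept all arrays and could test it, whereas CCL19, CCL26 and CCL27 lost it with array contrast as a covariate, and CCL19 and CCL26 also under median centring and quantile normalization. With arrays left out 1 at a time, CCL27 lost its call without 1 of them. CCL25 lost it without any 1 of 3 arrays, CCL19 without any 1 of 4 and CCL26 without any 1 of 6. When 1 array was left out, 1 to 5 chemokines were called higher, and only 1 was called when either AMI/S-endMSCs replicate 1 or AMI/Placebo replicate 2 was the array left out. CCL2, the main monocyte attractant and far brighter, had a change of -0.02.

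Of 13 chemokine receptors 2 rose, beside 2.6% of all genes. CXCR6, the receptor for CXCL16 on T and NK cells, was at 2.46, 2.43, 2.42 and 2.57 in the controls and at 3.39, 3.34, 3.05 and 3.02 after treatment, without overlap (0.73, SE 0.28). ACKR2, a scavenger of inflammatory chemokines, rose from 3.14, 3.05, 3.16 and 3.54 to 3.98, 3.50, 3.49 and 4.37 (0.61, SE 0.25). None of 22 T and NK cell markers was called, and their median was 0.08. CD2 of T cells changed by -0.26 (-1.10 to 0.58) and NCR1 of NK cells by 0.24 (-0.62 to 1.11). Both receptors lost their calls with array contrast as a covariate, and ACKR2 also without any 1 of 5 arrays.

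Neutrophil-related genes gave few calls. PGLYRP1, a bactericidal protein of neutrophil granules, rose by 0.56. It was the only call among 9 neutrophil markers, whose median was -0.01, beside 2.6% of all genes called higher. PGLYRP1 and DEFB129, a beta-defensin (0.81), were the 2 calls of 12 antimicrobial peptide genes, read beside the same share. Each was lost without any 1 of 4 arrays and with array contrast as a covariate. PGLYRP1 also lost its call under median centring and quantile normalization. The means of PGLYRP1 and DEFB129, 2.22 and 2.14, lay inside the range of genes of other organs. IL1B2, a pig copy of interleukin-1 beta, had the highest change of all 10912 genes, 2.29, and was not called (SE 1.24). It stood at 2.66, 3.09, 4.31 and 8.08 in AMI/Placebo and at 9.20, 6.81, 5.54 and 5.75 in AMI/S-endMSCs. Placebo replicate 4 alone reached the treated range. When 1 array was left out, the change of IL1B2 ran from 1.499 (without AMI/S-endMSCs replicate 1) to 3.47 (without AMI/Placebo replicate 4). It passed the threshold only in the latter case, and not when any of the other 7 arrays was left out. IL1B2 was not on the list of interleukins, whose 40 members had 0 calls. Its brightest members, IL6ST and IL13RA1, changed by -0.61 (-1.43 to 0.20) and -0.69 (-1.74 to 0.36).

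Macrophage genes were not called in either direction, and 2 genes of Fc receptor signalling fell. For macrophages and monocytes, 12 of 18 markers had a negative change and the median was -0.13, and C1QB, a complement protein made by tissue macrophages, changed by -0.53 (-1.37 to 0.32). FCGR2B, the inhibitory Fc receptor, fell from 4.92, 4.86, 5.07 and 3.80 to 3.90, 3.65, 4.51 and 3.45 (-0.78, SE 0.32), and LYN, a kinase acting below such receptors, fell by 0.54 on the log2 scale. They were 2 of 22 complement and Fc receptor genes, 18 of them negative, beside 1.83% of all genes called lower. Antigen presentation had 2 falls in 19 genes, read beside the same share, the class I gene SLA-3, from 6.31, 6.30, 5.85 and 5.84 to 4.25, 5.91, 4.82 and 5.87 (-0.87), and the class II gene SLA-DQB1, from 6.01, 5.83, 6.02 and 6.09 to 5.16, 5.83, 5.003 and 5.23 (-0.68). MHC genes are polymorphic and close in sequence, so that probes may read alleles and family members unequally. SLA-DQB1 lost its call under quantile normalization and without AMI/S-endMSCs replicate 3. The other 3 lost it with array contrast as a covariate, SLA-3 also without any 1 of 4 arrays and FCGR2B and LYN without any 1 of 5.

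**Figure D2:**
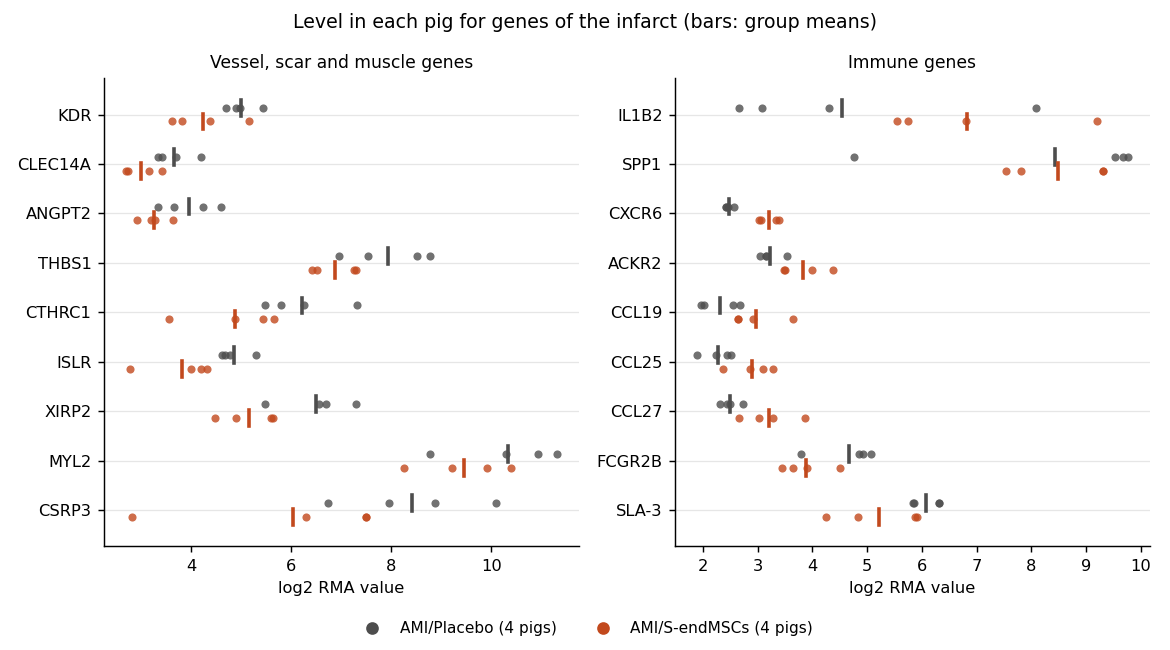
Each point is the log2 RMA value (x axis) of 1 pig, grey for AMI/Placebo and orange for AMI/S-endMSCs, for vessel, scar and muscle genes (left) and immune genes (right), and the bars are group means. The muscle genes MYL2 and CSRP3 and the immune genes IL1B2 and SPP1 spread over several log2 units within a biogroup, and SPP1 of placebo replicate 4 lies at 4.75.

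None of 19 measured genes of the type I interferon response was called, and 18 had a negative change, with a median of -0.41, and EIF2AK2 (-0.25) and OAS2 (-0.27) were the brightest. OAS2 split the controls, at 7.50, 6.84, 3.66 and 4.21, against 5.68, 6.32, 5.28 and 3.87 after treatment. The TNF and NF-kappa B list (20 genes) and the Toll-like receptor list (20 genes) had 0 calls each, with medians of -0.06 and -0.14 and with REL at -0.19, SOD2 at -0.26, TAB2 at 0.06 and MAP3K7 at -0.56. B cell markers (CD79A 0.03, POU2AF1 -0.05), red cell markers (HBB 0.43, SLC4A1 0.27), Schwann cell markers (NGFR 0.46, CDH19 -0.16), mesothelial markers (TBX18 -0.10, KRT8 0.19) and smooth muscle markers (CALD1 -0.13, ACTA2 -0.08) were not called either. Of 9 adipocyte markers, GPD1, which makes glycerol phosphate, was called (0.95, at a mean of 2.58), beside 2.6% of all genes called higher. It lost its call with array contrast as a covariate and without any 1 of 4 arrays.

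MCL1, a BCL2 family protein that protects from apoptosis, was at 5.30, 5.46, 5.66 and 4.29 in AMI/Placebo and at 3.20, 4.69, 4.63 and 4.17 in AMI/S-endMSCs (-1.01, SE 0.35). Its call held without any 1 array and in every other alternative. MCL1 was the only call of 17 genes of its list, beside 1.83% of all genes called lower. The proteasome subunits PSMB6 (-0.63) and PSMB7 (-0.77) fell among 14 measured, beside 1.83% of all genes called lower. Of the 14, 12 had a negative change, with a median of -0.44. HMOX2, the constitutive heme oxygenase, fell by 0.70, the lysosomal enzyme GUSB by 0.92 and the initiation factor EIF3M by 0.67 on the log2 scale. RPL23A, with many pseudogenes, was the only ribosomal protein called among 39, beside 2.6% of all genes called higher. It rose (0.66, and 0.13 by its other probe set). Heat shock proteins had 0 calls in 23 genes, with HSP90AB1 at -0.56 (-1.17 to 0.05) and HSP90AA1 at -0.30 (-1.20 to 0.60). Except for MCL1, these calls were lost without AMI/S-endMSCs replicate 1 and with array contrast as a covariate, and leaving out 1 array ended the call for 3 arrays in EIF3M, 4 in PSMB6, 5 in PSMB7 and RPL23A and 6 in HMOX2 and GUSB.

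RTN4, the reticulon known as Nogo that shapes the endoplasmic reticulum, was at 5.30, 6.65, 5.33 and 4.22 after placebo and at 1.77, 4.01, 5.19 and 3.58 after the secretome (-1.74, SE 0.64). The lowest value of all pigs was that of AMI/S-endMSCs replicate 1, and the biogroups overlapped. The other probe set of RTN4, at a mean of 2.02, changed by -0.12 and was not called. CDC42, a regulator of cell polarity, fell by 0.63 on the log2 scale. Both lost their calls with array contrast as a covariate, RTN4 also without AMI/Placebo replicate 2 or AMI/S-endMSCs replicate 1, and CDC42 without 5 of the 8 arrays. Of 32 measured vesicle traffic genes, 29 had a negative change, with a median of -0.25.

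Several genes that the study placed in its networks of miRNAs and targets belong here, and since the study chose them on these samples their direction is no independent evidence. BMPR2, a BMP receptor, fell by 0.88, IGF1R, the receptor of insulin-like growth factor 1, by 0.82 and SLC25A24, a mitochondrial carrier, by 0.68 on the log2 scale, beside RTN4, MCL1, CDC42, THBS1 and CTHRC1. YOD1, a deubiquitinase, rose by 0.57. STAT3 changed by -0.11 (-0.79 to 0.57) by its brighter probe set and by -1.15 by the dimmer one, so that its result depends on the probe set. RPS3, the ribosomal gene used as reference for qPCR in the study, was at 10.56 to 11.48 in all 8 pigs (-0.15, -0.63 to 0.33). Of these genes BMPR2 was lost without any 1 of 5 arrays, SLC25A24 without any 1 of 4, YOD1 without any 1 of 3 and IGF1R without AMI/Placebo replicate 1 or AMI/S-endMSCs replicate 1. In the 10 alternatives that kept all arrays, BMPR2 kept its call in 4 and IGF1R in each. SLC25A24 lost its call with array contrast as a covariate. YOD1 lost its call under median centring, quantile normalization and the block for replicate number.

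Over the 38 gene lists, 26 had a negative median and 12 a positive one, and the pigs of the biogroups overlapped in the mean of every list. In 16 lists AMI/S-endMSCs replicate 1 was the lowest of the 8 pigs and in 7 the highest, and AMI/Placebo replicate 4 was lowest in 10 and highest in 2. With the contrast of the array as a covariate, 16 of the 26 negative medians remained negative and 6 of the 12 positive ones positive. Without both arrays of lowest contrast, 20 and 12 did. Among the lists with larger medians, cardiomyocyte markers (-0.61), cardiac stress genes (-0.45) and fatty acid oxidation (-0.29) had a negative value in the fit with array contrast, whereas fibroblast and scar matrix genes (0.11), complement and Fc receptor genes (0.04) and heat shock proteins (0.02) became positive. Cardiomyocyte markers turned positive (0.096) without both arrays of lowest contrast, where cardiac stress genes (-0.28) and fatty acid oxidation (-0.25) did not.

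**Figure D3:**
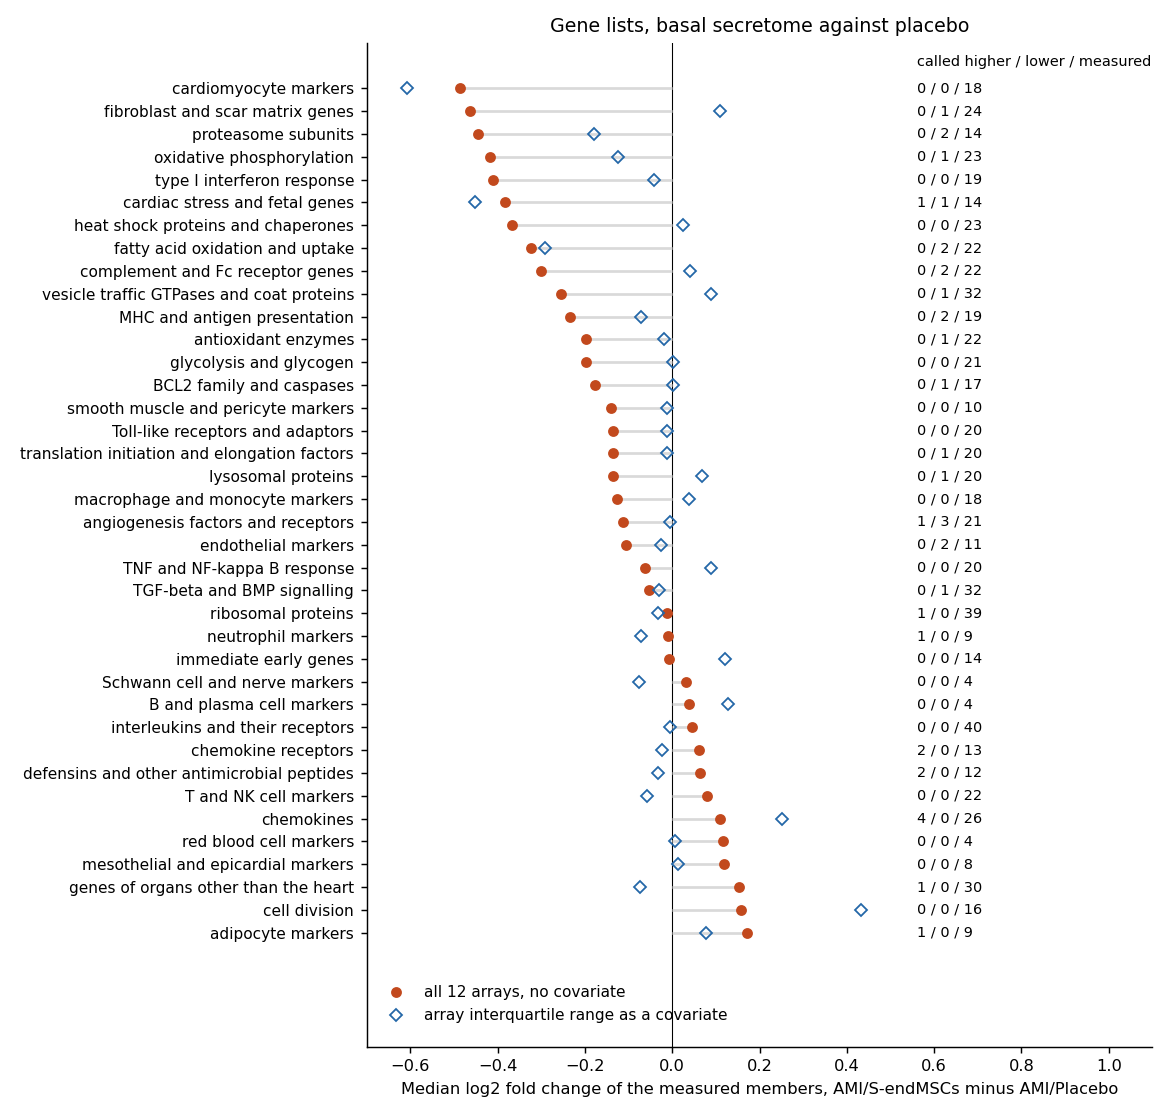
Median log2 fold change (x axis) of the measured members of each of 38 gene lists (y axis), with all arrays and no covariate (filled circles) and with array contrast as a covariate (open diamonds), and counts of members called higher, called lower and measured at the right. The lists of muscle, scar, proteasome and respiratory chain genes lie between -0.49 and -0.42 without the covariate.

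The direction of a change followed the level of the gene. When the genes were put in 4 equal groups by mean level, the median log2 fold change was 0.16, 0.11, -0.07 and -0.24 from the dimmest to the brightest, and 73.8%, 66.2%, 41.5% and 21.5% of the genes had a positive change. The dimmest group held 116 genes called higher and 8 called lower, and the brightest 10 called higher and 110 called lower, while the share of genes called was alike in the 4 groups (4.03% to 4.77%). The second dimmest group, which holds the median level of the chemokines (2.70), had 115 called higher and 15 called lower. Each group had 2728 genes. The shares of all genes set beside the lists were not matched for level. The interquartile range of the arrays, which is itself set by the distance between bright and dim genes, was 2.40, 2.52, 2.21 and 1.80 in AMI/Placebo (2.23 ± 0.31, SD, n = 4) and 1.66, 2.06, 2.24 and 1.93 in AMI/S-endMSCs (1.97 ± 0.24, SD, n = 4). The difference of -0.26 had an exact two-sided permutation p of 0.229 (70 regroupings, smallest possible p = 0.0286). Taking it as a covariate removes a shift that depends on level by construction, and in that fit 181 of the 484 calls remained. Leaving out both arrays of lowest contrast, a choice made after the values were seen, gave medians of 0.17, 0.13, -0.08 and -0.24.

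**Figure D4:**
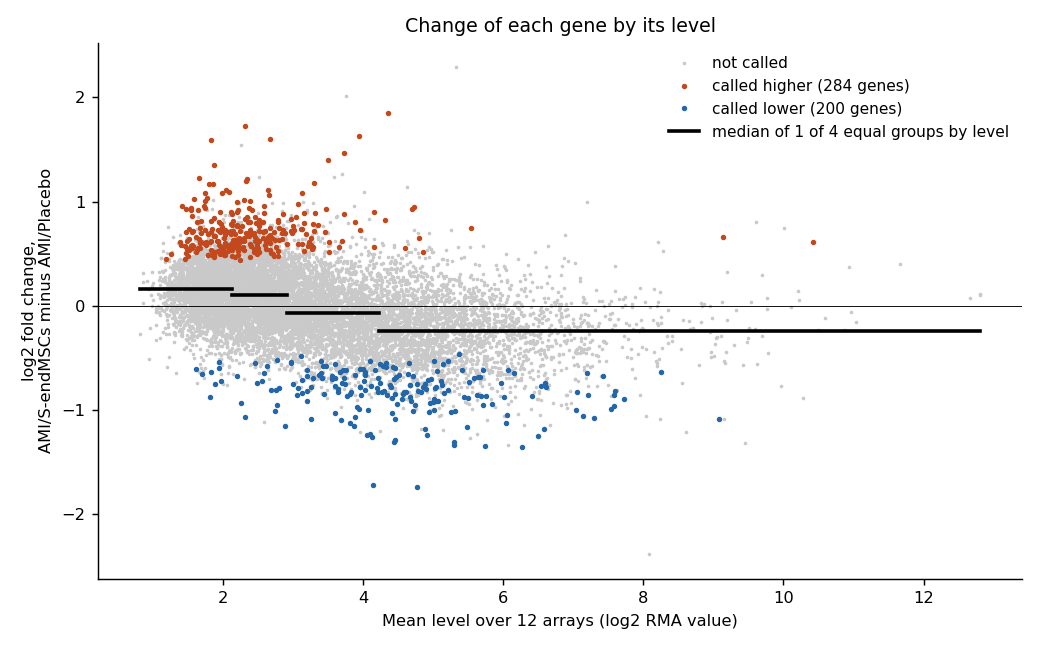
Each point is 1 of 10912 genes, with its mean level over 12 arrays (x axis, log2 RMA value) and its log2 fold change, AMI/S-endMSCs minus AMI/Placebo (y axis), coloured where called. Black lines are medians of 4 equal groups of genes by level, which go from 0.16 at the dim end to -0.24 at the bright end.

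**Figure D5:**
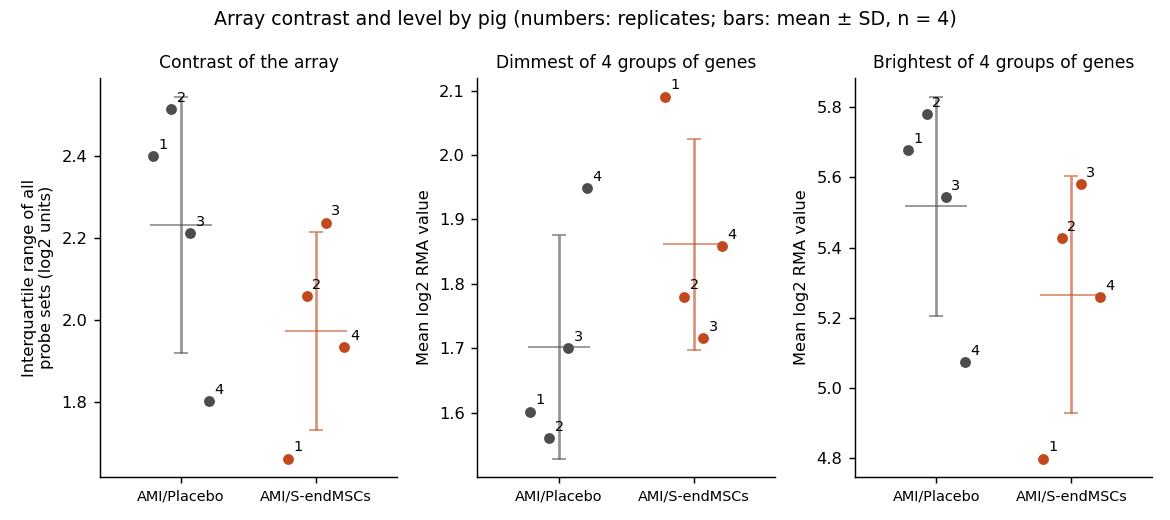
Interquartile range of all probe sets (left, log2 units) and mean log2 RMA value of the dimmest (middle) and brightest (right) of the 4 groups of genes in each pig, with replicate numbers and mean ± SD (n = 4); the y axes do not start at 0. AMI/S-endMSCs replicate 1 and AMI/Placebo replicate 4 have the lowest contrast, the highest dim genes and the lowest bright genes.

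Pigs given the secretome differed from each other about as much as the controls did. The median SD of a gene was 0.37 in AMI/Placebo and 0.40 in AMI/S-endMSCs, and the SD was larger among the controls for 45.7% of the genes. Pairs of arrays had a mean correlation over genes of 0.918 within AMI/Placebo, 0.891 within AMI/S-endMSCs and 0.905 between them, where genes are not independent replicates. Spread grew with level, from a median SD of 0.30 and 0.34 in the dimmest of the 4 groups to 0.46 and 0.50 in the brightest. Bright genes with the widest spread were CSRP3, SPP1 and IL1B2, described above, the glycoprotein folding sensor UGGT1 and the germ-cell gene TEX14. UGGT1 was at 5.37, 5.13, 4.99 and 1.37 in AMI/Placebo and at 2.30, 4.78, 5.60 and 4.48 in AMI/S-endMSCs, with both low values on the arrays of lowest contrast. Cell division genes varied between pigs rather than between biogroups. Their mean was 1.24 above the mean of each gene in AMI/S-endMSCs replicate 3 and between -0.23 and -0.02 in the other treated pigs, 0 of 16 were called, and TOP2A (-0.03, -1.37 to 1.31) and ANLN (-0.40, -1.76 to 0.97) were the brightest.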

How the data were processed

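The deposited values are log2 expression values that the authors made from GeneChip Porcine Gene 1.1 ST arrays by RMA, using oligo (versions not given in the sources used here). Depth has no meaning for arrays, and the number of pigs limits the precision. Probe sets were named from the platform annotation, and 15203 not listed there and 373 with several symbols carry no name. Group means of all 12 arrays were fitted with limma 3.58.1 in R 4.3.3 (lmFit, eBayes), a procedure tested on simulated data; figures were drawn with matplotlib 3.10.9. Array contrast was compared by an exact permutation test. The members and the 38 gene lists were chosen with earlier results of these data known, and 1 further list is not reported here. Named genes were the 15 largest changes per direction among called, non-overlapping, brighter genes with a gene symbol of known meaning (no LOC or open reading frame names), the 10 smallest p-values, up to 4 called members of each list (or the 2 brightest), the 5 widest spreads, and the genes of the study's networks with RPS3. CCL2 and genes introduced as chosen after their values were seen stand outside it. Alternatives were arrays centred on their medians or quantile normalized, dim probe sets left out, only the 2 biogroups, a block for the replicate number, covariates for array contrast or cardiomyocyte markers, array weights, a trend, averaged probe sets and leaving out each array. Promoter sequences were not analysed here.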

Additional observations from a re-analysis of the deposited data

Results flagged for a closer look

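In 294 groups of 4 pigs (named genes and list means in either biogroup), 25 had a pig far from the other 3 by Dixon's ratio. Its threshold passes about 1 in 20 by chance in independent groups not chosen on their values. Here the same pigs recur in all groups, and some genes were named for their spread or call. The count of 25 therefore cannot be judged against that rate. AMI/Placebo replicate 4, the control array of lowest contrast, was the distant pig in 10 of the 25. It was low for the immune genes FCGR2B (3.80) and LYN (2.88), for GAPDH (9.04), RAB24 (4.09), SPP1 (4.75) and UGGT1 (1.37), and high for the NK cell receptor NCR1 (5.80) and the muscle gene MYBPHL (2.04). Its means of macrophage and monocyte markers (-0.45) and of translation factors (-0.43) were also low, as differences from the mean of each gene. AMI/Placebo replicate 2 stood high for ATP5B (8.24) and EIF3M (8.24). AMI/Placebo replicate 3 stood high for CD2 (5.16) and NACC1 (4.31) and low for SHISA5 (1.98), and replicate 1 high for IGF1R (5.43) and low for TENM2 (1.81).

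Among AMI/S-endMSCs pigs, replicate 3 was distant for BACH1 (3.30), SLC25A24 (3.87), YOD1 (3.31) and the mean of cell division genes (1.24), all on the high side. Replicate 1, of the lowest contrast, was high for EN2 (2.801) and low for KYAT3 (3.31) and for the mean of ribosomal proteins (-0.20). Replicate 2 was high for TBX18 (5.25).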

How the results depend on the processing

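Of the 484 calls, 362 were shared under median centring (163 higher and 318 lower called), 331 under quantile normalization, 348 with the biogroups alone, 410 with the replicate number as a block (536 called), 181 with array contrast as a covariate (375 called), 339 with cardiomyocyte markers as a covariate, 431 with array weights (941 called, 498 higher and 443 lower), 443 with a trend and 459 with the mean over probe sets. The filter on dim probe sets left 207 calls in 5834 genes (52 higher, 25.1%) and 60 without overlap, by its construction. Without 1 array the calls numbered 264 (without AMI/S-endMSCs replicate 1) to 1069 (without AMI/Placebo replicate 4), 163 to 459 higher, 101 to 610 lower and 152 to 638 without overlap. Other counts past 1.5 times were 297 and 284 without AMI/Placebo replicates 1 and 2 and 946 without AMI/S-endMSCs replicate 3. Without both arrays of lowest contrast, 612 genes were called (317 lower, 489 without overlap), 276 of them shared. The cause of these differences was not tested. Same-numbered pigs had deviations correlated at -0.24, 0.15, 0.17 and 0.19. Without such values for pigs of different numbers, these cannot decide whether the numbers mark a pairing. The block is given as an alternative only. The difference in array contrast ranged from -0.40 to -0.16 and the median SD from 0.32 to 0.41 (AMI/S-endMSCs) and 0.27 to 0.38 (AMI/Placebo) when 1 array was left out. Changes of sign occurred in genes that were not called. With array contrast as a covariate they were ACTA2 (0.33), ANLN (0.22), EIF2AK2 (0.22), HSP90AA1 (0.092), KRT8 (-0.039), LDHA (0.56), NCR1 (-0.23), OAS2 (0.51), REL (0.037), STAT3 (0.22), TBX18 (0.33) and TOP2A (0.48). Quantile normalization turned ACTA2 (0.061), STAT3 (0.043), TBX18 (0.10) and TOP2A (0.15), and median centring ATF3 (-0.061), CD79A (-0.065), SPP1 (-0.037), TAB2 (-0.040) and UGGT1 (-0.023). Cardiomyocyte markers as a covariate turned ATF3 (-0.17), POU2AF1 (0.030), SPP1 (-1.01), TAB2 (-0.075) and UGGT1 (-0.12), and array weights ATF3 (-0.0204), CD79A (-0.00503), CDH19 (0.12), POU2AF1 (0.13), SPP1 (-1.01), TAB2 (-0.13), TEX14 (-0.26) and UGGT1 (-0.28). The mean over probe sets turned UGGT1 (-0.047). Without both arrays of lowest contrast, ATF3 (-0.00791), CD79A (-0.031), CDH19 (0.16), POU2AF1 (0.16), RPS3 (0.037), SPP1 (-1.44), TAB2 (-0.17) and UGGT1 (-0.21) changed sign. When 1 array was left out, the ranges that crossed 0 were -0.58 to 0.17 for ACTA2, -0.054 to 0.19 for ATF3, -0.11 to 0.12 for CD79A, -0.38 to 0.086 for CDH19, -0.17 to 0.39 for KRT8, -0.68 to 0.19 for LDHA, -0.90 to 0.38 for OAS2, -0.29 to 0.16 for POU2AF1, -0.30 to 0.0036 for RPS3, -1.16 to 0.51 for SPP1, -0.33 to 0.063 for STAT3, -0.30 to 0.32 for TAB2, -0.33 to 0.029 for TBX18, -0.59 to 0.83 for TEX14, -0.66 to 0.34 for TOP2A and -0.87 to 0.74 for UGGT1. With 4 pigs per biogroup and 0 genes past the adjusted threshold, single calls are not separated from the share that the threshold lets through. The promoter features were not run.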

Other observations

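Genes of the mitochondrial genome had changes opposite in sign to most nuclear energy genes, and as a set they were chosen after their values were seen and therefore given without a test of the set. All 8 measured had a positive change, with a median of 0.65, while 22 of 23 nuclear oxidative phosphorylation genes had a negative one. COX2, a catalytic subunit of cytochrome oxidase, was at 9.54, 9.998, 10.42 and 10.62 in AMI/Placebo and at 10.85, 10.49, 10.80 and 10.90 in AMI/S-endMSCs (0.61, SE 0.28). It was the only one of the 8 called, beside 2.6% of all genes called higher, and its call was lost without any 1 of 5 arrays. CYTB of complex III was at 8.98, 9.29, 9.51 and 10.04 against 10.31, 9.85, 10.06 and 10.83 (0.81, SE 0.38). The others ran from COX1 (0.07) through ND1 (0.37), ND5 (0.40), ND2 (0.68) and ND3 (0.74) to ND6 (1.14, SE 1.17). Averaged over the 8 genes, the pigs differed from the mean of each gene by -0.98, -0.49, -0.26 and 0.56 after placebo and by 0.31, 0.01, 0.19 and 0.75 after the secretome, so the biogroups overlapped. The control with the highest value, replicate 4, was the one of lowest array contrast, whose part in this was not tested. Among nuclear respiratory genes outside the fixed list, COX7A2 fell by 1.08 (SE 0.41) and NDUFAB1 by 0.84 (SE 0.34) on the log2 scale. COX7A2 overlapped between the biogroups and lost its call without any 1 of 3 arrays. NDUFAB1 did not overlap and lost its call without any 1 of 2.

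Several genes outside the rule for naming were looked at after their values were seen. AMCF-II, a neutrophil-attracting chemokine of the pig, rose from 1.59, 1.63, 2.06 and 1.83 to 2.75, 2.68, 4.13 and 1.92 (1.09, SE 0.36) and kept its call without any 1 array. TREM1, an amplifying receptor of neutrophils and monocytes, rose by 0.95 and lost its call without either of 2 arrays. The means of AMCF-II and TREM1 over the 12 arrays were 2.09 and 1.74, inside the range of genes of other organs. CXCL8, the main neutrophil chemokine, was at 4.43 and 4.85 in AMI/S-endMSCs replicates 1 and 3 and at 2.72 and 2.02 in the other treated pigs, against 2.14 to 3.09 after placebo, and it was not called (0.98, SE 0.53). SERPINB2, an inhibitor of plasminogen activators made by monocytes, fell from 5.07, 4.48, 3.61 and 4.51 to 1.51, 2.53, 3.78 and 2.97 (-1.72, SE 0.68), and its call was lost without either of 2 arrays, AMI/S-endMSCs replicate 1 among them. The matrix genes ASPN (-1.18, SE 0.48) and EFEMP1 (-1.002, SE 0.46) fell as well. In both the biogroups overlapped. ASPN lost its call without any 1 of 3 arrays and EFEMP1 without any 1 of 5.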
